A study of Mus musculus with 5 samples.

Results

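Genes that stood apart from both controls in all 3 treated cultures of a mouse melanoma line are described here, after treatments for which the labels call the cells differentiated. The line was B16F10, a pigment-cell tumour line of the mouse. The muscle regulator Myod1 was force-expressed from a lentivirus in 1 culture, the adipocyte regulator Pparg was force-expressed in the same way in another, and the histone methyltransferase Setdb1 was knocked down in the last with a lentiviral short hairpin RNA (shSetdb1). The controls, labelled wild type, were B16F10 cells that received lentivirus with the empty expression vector, for both forced-expression cultures, or with the empty knockdown vector (shCtrl), for the Setdb1 knockdown. All 5 cultures had thus received a lentivirus and grew in DMEM with serum, for 8 days in the forced-expression arm and its control and for 7 days in the knockdown arm and its control. The promoter that drove each transgene, the hairpin sequence, and whether the cells were a pool or a clone are not given in the sources used here. A gene was counted as above both controls when its log2(FPKM + 1) was higher in every one of the 3 treated libraries than in either control, and as below both controls in the opposite case. FPKM counts fragments relative to gene length and sequencing depth. Genes were compared where at least 1 library reached an FPKM of 1. Of these 12842 genes, out of 54699 in the table, 2123 (16.5%) were above both controls, 2396 (18.7%) were below both, and 8323 (64.8%) were in neither class. The measured levels chose these genes, and all 3 treatments are set against the same 2 controls, so their separation from the controls is a description and carries no test.

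Cells that leave the division cycle to take on a specialised fate usually switch off the genes of DNA replication and mitosis, and the Id proteins, the BTG family and the CDK inhibitors are long-studied regulators at that switch. Id proteins bind the partners of basic helix-loop-helix factors such as Myod1 and keep them from DNA. Linker histones pack nucleosomes into folded chromatin, and extracellular superoxide dismutase removes superoxide outside the cell. Myod1 turns on the muscle programme, Pparg the adipocyte programme, and Setdb1 places methyl groups on lysine 9 of histone H3.

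Each group was 1 library, and the 3 treated libraries received different treatments, so they are not replicates of a condition. No test between conditions was possible. Even with the 3 treated libraries taken as a group, an exact two-sided rank-sum test against 2 controls could not go below p = 0.2. The libraries held between 16214802 and 18300670 reads assigned to genes. Myod1 was at 260 FPKM in its own library and at 0 in the other 4, and Pparg was at 44.4 FPKM in its own library and at 0 in the others. Setdb1 was at 0.867 FPKM in the knockdown library and between 8.41 and 15.2 in the remaining 4 libraries. The pigment-cell genes Mitf, Tyr, Tyrp1, Dct, Pmel, Mlana and Sox10, which define the labelled cell type, were detected in all 5 libraries. Of the immune-cell markers, Cd3e was at 0 in every library and Ptprc reached at most 0.00590 FPKM. Lyz2 was between 0.714 and 2.05 FPKM over the 5 libraries, and Itgam had 29 reads in the Myod1 library and at most 1 elsewhere. The 16 immune-cell genes summed to between 1.27 and 2.77 FPKM per library. The 14 fibroblast and endothelial genes summed to between 3.996 and 11.1 FPKM, with Dcn and Thy1 at 0 in all 5. Pdgfrb lay between 2.46 and 9.90 FPKM, and Cdh5 had 34 reads in the Myod1 library and 0 elsewhere.

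Most of the separation was small. The gap, defined as the distance on the log2(FPKM + 1) scale between the treated library nearest the controls and the control nearest to it, had a median of 0.20 in genes above both controls and 0.19 in genes below. The controls themselves differed by a median of 0.21 over all genes compared. The gap was larger than the gene's own difference between the controls in 1235 genes (58.2%) above and in 1284 (53.6%) below. When the 95% Wilson intervals on read counts of the 2 nearest libraries also had to be apart, 852 genes (6.63% of those compared) remained above and 1242 (9.67%) below. These intervals cover counting error only and not the spread between cultures. A gap of at least 1.5-fold was seen in 197 genes above (1.53%) and 162 below (1.26%), and a gap of at least 2-fold, that is 1 on the log2 scale, in 37 above (0.288%) and 22 below (0.171%).

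The Pparg expression library was the treated library nearest the controls in 1140 of the genes above (53.7%) and in 1528 of the genes below (63.8%). Myod1 expression was farthest from the controls in 1023 of the genes above (48.2%), and Setdb1 knockdown was farthest in 1307 of the genes below (54.5%). A gene must pass in every library, so the counts can only rise when a library is left out, and they rose most without Pparg expression, to 3412 genes above and to 195 above and 285 below by 2-fold. Without the expression vector control 3300 genes were above. The number above and below by 2-fold was 83 and 34 without Myod1 expression, 113 and 53 without Setdb1 knockdown, 123 and 101 without the expression vector control, and 69 and 100 without the knockdown vector control. Just inside the 2-fold limit lay Trp53inp2 at a gap of 1.01, and just outside lay Rdm1 and Ctsh, both at 0.99, and Tcta at 0.98. On the other side Fbln1 was just inside at -1.004, and Gm2981 (-0.98), Itga4 (-0.97) and Gm20618 (-0.95) were just outside. At a gap of 0, Arpc5l, Pop7 and Brf2 were the last genes counted as above, and Terf2, Tmem209 and Cdc73 the last counted as below.

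The widest gap above the controls belonged to Id3, an inhibitor of basic helix-loop-helix factors (chromosome 4, 136143497 to 136145755, GRCm38). Its level was 55.5 FPKM in the Myod1 library, 34.7 in the Pparg library and 28.3 in the Setdb1 knockdown library, against 2.15 in the expression vector control and 2.44 in the knockdown vector control. The counting interval of the lowest treated library ran from 26.5 to 30.1 FPKM and that of the higher control from 1.94 to 3.06. The treated libraries lay within a range of 2-fold of each other, and the nearest was 11.6 times the higher control. Sod3, the extracellular superoxide dismutase (chromosome 5, 52363791 to 52371418), stood at 42.6, 33.4 and 17.8 FPKM in the Myod1, Pparg and Setdb1 knockdown libraries and at 1.15 and 2.78 FPKM in the expression and knockdown vector controls. Its controls were further apart than those of Id3, yet the nearest treated library was still 6.39 times the higher of them. Btg2, an antiproliferative p53 target (chromosome 1, 134075170 to 134079120), was at 32.9, 18.4 and 14.6 FPKM in the treated libraries, in the same order, and at 1.54 and 2.88 in the controls. For Id3, Sod3 and Btg2 alike, Myod1 expression was highest and Setdb1 knockdown lowest among the treated libraries. With each library left out in turn, the gap ran from 3.09 to 3.38 for Id3, from 2.31 to 3.18 for Sod3 (the highest without Setdb1 knockdown, and 3.13 without the knockdown vector control) and from 2.004 to 2.61 for Btg2.

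Hist1h1c, a linker histone gene (chromosome 13, 23738808 to 23740367), followed another order. Its level was 105 FPKM in the Myod1 library, 62.8 in the Pparg library and 211 in the Setdb1 knockdown library, against 11.3 and 19.0 in the expression and knockdown vector controls. Here Setdb1 knockdown was highest and Pparg expression nearest the controls, at 3.31 times the higher one. The gap of Hist1h1c was 1.67 as reported, 2.41 without Pparg expression and 2.37 without the knockdown vector control.

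**Figure D1:**
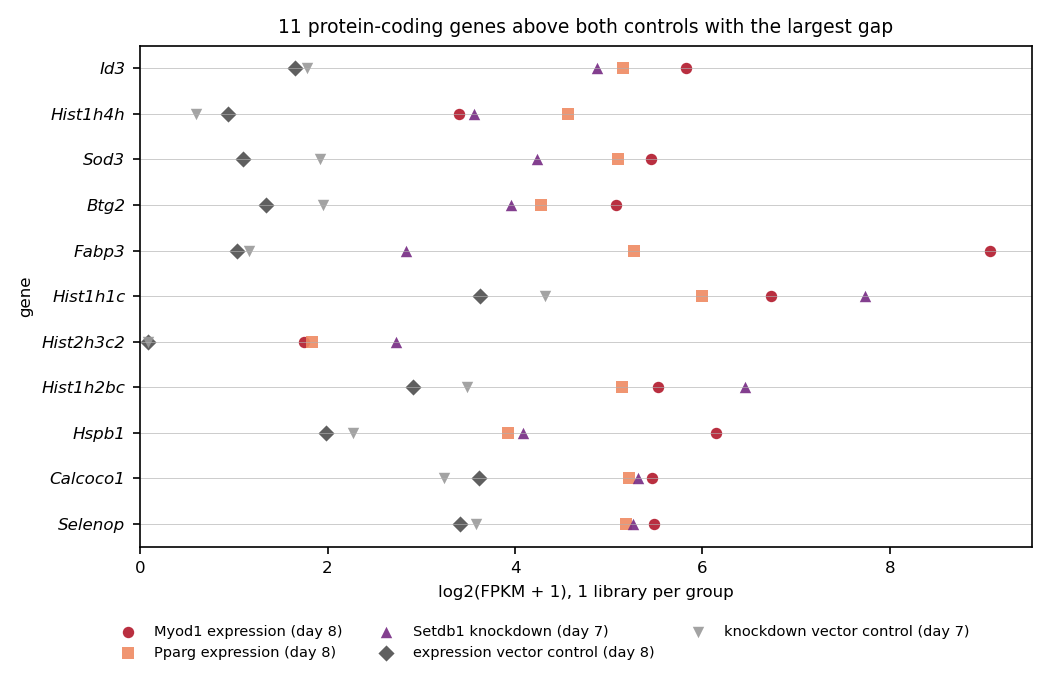
Levels, as log2(FPKM + 1) on the horizontal axis, of the 11 protein-coding genes with the widest gap above both controls; each symbol is 1 library and each row a gene. Both grey control symbols lie left of all 3 coloured treated symbols in every row, by 3.09 for Id3 at the top and by 1.60 for Selenop at the bottom.

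Some core histone genes were also above the controls. Hist1h4h, a histone H4 gene, was at 9.61, 22.6 and 10.8 FPKM with Myod1 expression, Pparg expression and Setdb1 knockdown and at 0.912 and 0.509 in the controls, where it had 7 and 4 reads. Hist1h2bc, a histone H2B gene, was at 45.2, 34.3 and 86.5 FPKM in the treated libraries and at 6.51 and 10.2 in the controls. Hist2h3c2, named in the table as a histone H3 gene, had 38, 50 and 106 reads in the treated libraries and 1 read in each control, so its level in the controls is known only to lie between 0.0103 and 0.340 FPKM. Of the 14 compared genes in a list of linker and polyadenylated histones, 9 (64.3%) were above both controls, 3 of them by 2-fold, and 1 was below, against 16.5% and 18.7% of all genes. The genes above also included the variants H2afv and H2afj, and the 1 below was H2afy, the macroH2A gene, at 12.1, 14.4 and 13.1 FPKM against 19.0 and 23.5. Among the 9 above, Hist1h2ac and Hist1h2be reached an FPKM of 1 in only 1 library, Setdb1 knockdown. With each library divided by the sum of its FPKM, 6 of the 14 were above. Histone genes have near-identical coding sequences, and how the authors counted reads shared between copies is not given in the sources used here, so the split among copies is uncertain.

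The 250 bases before the start site are printed for Hist1h4h, Btg2 and Hist1h1c, the 3 genes with the widest gaps above the controls among those with a RefSeq window outside the table's gene. All 3 windows hold a marked element, whereas those of the next such genes, Hist2h3c2, Hspb1 and Calcoco1, hold none of them. Sequences are from RefSeq on GRCm38.p6, read 5′ to 3′ on the gene's own strand. Capitals mark matches to TGACGTCA, the full cAMP response element, CCAAT, the NF-Y box, and GGCGCC, a GC-rich SMAD-type element. Hist1h4h lies on the plus strand at chr13:23530794-23531043, Hist1h1c on the plus strand at chr13:23738557-23738806 and Btg2 on the minus strand at chr1:134079156-134079405.
Hist1h4h: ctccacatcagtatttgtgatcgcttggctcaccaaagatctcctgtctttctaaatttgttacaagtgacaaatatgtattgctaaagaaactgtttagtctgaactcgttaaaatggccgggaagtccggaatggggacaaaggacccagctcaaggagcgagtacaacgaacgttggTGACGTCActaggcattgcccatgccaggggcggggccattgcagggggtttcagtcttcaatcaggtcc
Hist1h1c: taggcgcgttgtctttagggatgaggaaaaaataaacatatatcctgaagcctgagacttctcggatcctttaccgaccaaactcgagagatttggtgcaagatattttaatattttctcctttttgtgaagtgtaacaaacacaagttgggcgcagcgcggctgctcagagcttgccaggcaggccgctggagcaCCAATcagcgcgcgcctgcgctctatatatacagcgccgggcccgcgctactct
Btg2: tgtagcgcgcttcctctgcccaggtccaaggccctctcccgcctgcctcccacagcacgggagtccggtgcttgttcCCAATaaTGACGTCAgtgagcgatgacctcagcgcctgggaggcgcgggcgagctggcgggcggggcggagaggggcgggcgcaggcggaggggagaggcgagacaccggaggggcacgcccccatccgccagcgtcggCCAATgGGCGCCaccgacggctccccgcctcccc
Hist1h4h held TGACGTCA with its first base 70 bases before the start, Hist1h1c held CCAAT 54 bases before it, and Btg2 held TGACGTCA 166 bases before it with CCAAT at 173 and 34 bases and GGCGCC at 28 bases before it.

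Promoters were found in the table for 28 of the 37 genes above by 2-fold (34 promoters) and for 12 of the 22 below (14 promoters). TGACGTCA, searched on both strands, was in 6 of the 34 (17.6%), those of Hist1h4h, Btg2, Plk2, Trp53inp2, Neurl1a and Gm10687, and in 0 of the 14. It was in 2.52% of the 11701 promoters of all genes compared and in 1.55% of all 32851 promoters. At the looser limit of 1.5-fold, 11 of 189 promoters above (5.82%) and 3 of 142 below (2.11%) held it. CCAAT was in 35.3% of the promoters above by 2-fold, 28.6% of those below and 35.1% of those of all genes compared. The E-box core CANNTG, which also covers every CACGTG, was in 73.5% above, 78.6% below and 57.3% of all compared, and CACGTG alone in 11.8%, 21.4% and 8.53%. GGCGCC was in 23.5%, 28.6% and 17.0%. TTTGAA, the core of the cell-cycle homology region, was in 2.94%, 0% and 10.5%, the AP-1 site TGANTCA in 0%, 7.14% and 4.29%, and TATAAA in 5.88%, 0% and 6.23%. The E2F sites TTTCCCGC and TTTGGCGC and the SMAD palindrome GTCTAGAC were in none of the promoters of either 2-fold set. Median GC content was 60.2% in the promoters above, 60.4% in those below and 60% in those of all genes compared. A match describes letters in a window and is not a bound site.

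Selenoprotein genes were among the 37 above by 2-fold. Selenop, which encodes a secreted selenium carrier, was at 43.7, 35.3 and 37.3 FPKM with Myod1 expression, Pparg expression and Setdb1 knockdown and at 9.69 and 11.03 in the expression and knockdown vector controls, and Selenow was at 117, 126 and 215 against 48.4 and 51.9. The 3 treated libraries held nearly the same level of Selenop, with none overlapping a control. In the list of 28 antioxidant and metal-binding genes, 10 (35.7%) were above and 3 were below. Leaving out Setdb1 knockdown put 7 below and took the list's median of mean treated minus mean control from 0.34 to -0.01; the Myod1 library's own median relative to the control mean was -0.22. The count below was 5 without Pparg expression and likewise without the expression vector control. Prdx5, a peroxiredoxin, was at 81.3, 55.5 and 52.5 FPKM against 28.1 and 23.4, and Gpx4, a lipid peroxide reductase, at 367, 844 and 325 against 239 and 212. Thioredoxin reductase Txnrd1 lay on the other side, at 39.9, 36.2 and 25.3 FPKM against 62.6 and 85.9, together with thioredoxin (Txn1) and Prdx4.

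S100a1, a calcium-binding protein gene of muscle and nerve, was at 152, 125 and 313 FPKM in the Myod1, Pparg and Setdb1 knockdown libraries and at 46.0 and 28.9 in the controls, and its chromosome 3 neighbour S100a13 at 36.1, 31.3 and 42.0 against 11.2 and 10.6. Calcoco1, an autophagy receptor gene, stood at 43.1, 36.2 and 38.8 FPKM against 11.3 and 8.46. Map1lc3a, whose product coats autophagosomes, was at 91.6, 59.0 and 66.0 FPKM against 23.8 and 20.1. Trp53inp2, which recruits LC3 proteins to autophagosomes, was at 113, 51.2 and 38.6 FPKM against 18.6 and 15.3. In the wider list of 61 lysosome and autophagy genes only 7 (11.5%) were above and 5 (8.20%) below, which is no more than in all genes. Besides Map1lc3a those above were the cathepsins Ctsf, Ctsh and Ctsl, Gabarap, Map1lc3b and Atp6v0b. Without Myod1 expression 17 of the 61 were above, 15 without Pparg expression and 14 without the expression vector control, while 18 were below without Setdb1 knockdown, where the median of mean treated minus mean control went from 0.16 to -0.09, and 8 without the knockdown vector control.

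Several genes cleared both controls everywhere but by very different amounts. Fabp3, a muscle and heart fatty-acid carrier, was at 536 FPKM in the Myod1 library, 37.6 in the Pparg library and 6.17 in the Setdb1 knockdown library, against 1.04 and 1.24 in the controls. Neurl1a, a ubiquitin ligase gene, was at 80.5, 2.51 and 2.23 FPKM against 0.375 and 0.285, and Pdk2, a pyruvate dehydrogenase kinase, at 49.5, 5.15 and 4.85 against 1.51 and 1.23. In these genes the Myod1 library was by far the highest, and for Neurl1a and Pdk2 the other treated libraries stood only a few FPKM above the controls. The small heat shock protein gene Hspb1 was at 70.0, 14.2 and 15.9 FPKM against 2.97 and 3.83. Thrsp, a lipogenic gene, was led by Pparg expression, at 3.52, 11.4 and 2.74 FPKM against 0.559 and 0.464. Of the 37 genes above by 2-fold, 20 had treated libraries within 1 log2 unit of each other and 5 had them more than 2 units apart. The smallest of the 37 in reads was the microRNA gene Gm25911, with 1, 2 and 3 reads in the treated libraries and 0 in the controls; it is the 1 gene of the 37 whose counting intervals overlapped.

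Oplah, the enzyme that opens 5-oxoproline in the glutathione cycle, was at 3.76, 3.75 and 3.17 FPKM against 0.545 and 0.553. The circadian output factor Dbp was at 9.88, 7.79 and 7.58 FPKM against 2.21 and 1.82. Oplah and Dbp were nearly level across the 3 treatments and nearly level across the controls. Other genes of the 37 were Gm16124, Mettl27, Junb, Zfp36, 1700007K13Rik, Isg20, Dmac2, Cox6a2, P2rx5, Plk2, Gm10687, Frat2 and a locus outside the annotation on chromosome X at 9328975 to 9332636. Gm16124 and Gm10687 are antisense genes, and whether reads were counted by strand is not given in the sources used here, so their reads cannot be told apart from those of the genes they overlap.

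Below both controls the widest gap was that of Kank4, a gene of the KANK family of adhesion adaptors (chromosome 4, 98754898 to 98817537). Its level was 1.05 FPKM in the Myod1 library, 1.25 in the Pparg library and 0.913 in the Setdb1 knockdown library, against 7.35 and 8.33 in the expression and knockdown vector controls. The treated libraries lay close together, and the lower control was 5.88 times the highest of them. Eps8, an actin-capping substrate of growth-factor receptors (chromosome 6, 137477245 to 137654876), was at 14.2, 14.9 and 12.7 FPKM against 62.5 and 54.7. Enpp2, which encodes the secreted enzyme autotaxin, was at 2.86, 2.83 and 2.15 FPKM against 12.3 and 12.4. Gjc3, a connexin of glial cells, was at 2.64, 3.40 and 1.53 FPKM against 14.7 and 12.3. Met, the receptor of hepatocyte growth factor (chromosome 6, 17463800 to 17573980), was the most abundant of these, at 24.9, 41.7 and 22.7 FPKM against 128 and 126. In Met the Pparg library lay between the other treated libraries and the controls, while Eps8 and Enpp2 were almost level across the 3 treatments.

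**Figure D2:**
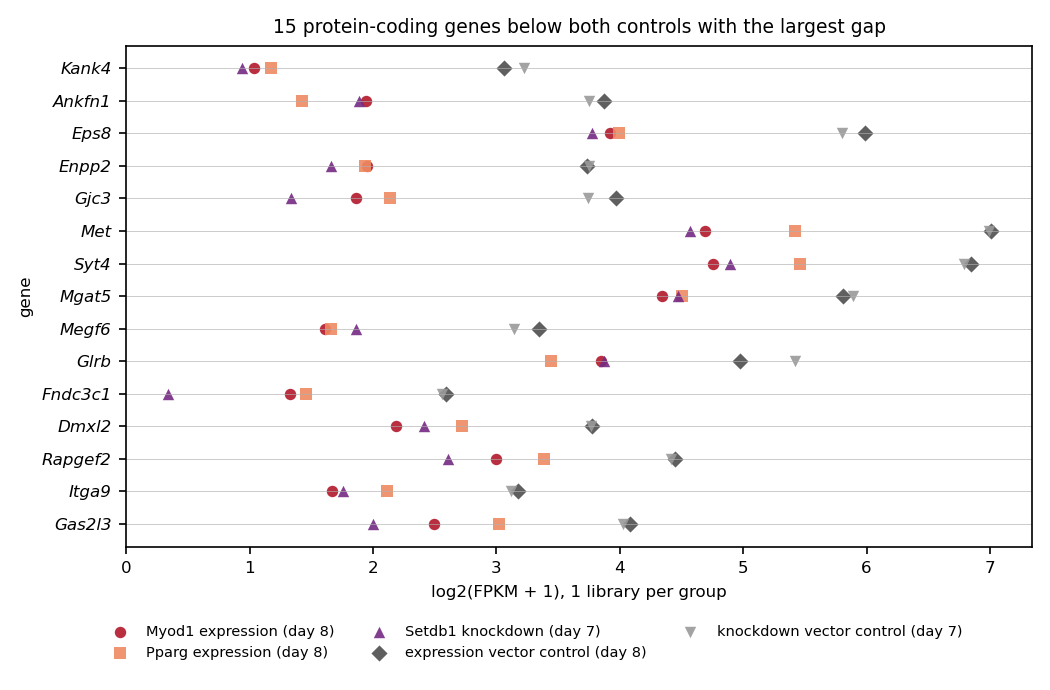
Levels, as log2(FPKM + 1) on the horizontal axis, of the 15 protein-coding genes with the widest gap below both controls; each symbol is 1 library and each row a gene. The grey control symbols lie right of the 3 coloured treated symbols in every row, by 1.89 for Kank4 and by 1.01 for Gas2l3.

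Ankfn1 was at 2.84, 1.68 and 2.70 FPKM in the Myod1, Pparg and Setdb1 knockdown libraries and at 13.6 and 12.5 in the controls. Mgat5, a Golgi enzyme that branches N-glycans, was at 19.3, 21.7 and 21.2 FPKM against 55.1 and 58.2. Syt4, a synaptotagmin of vesicle trafficking, was at 26.0, 43.1 and 28.8 FPKM against 114 and 109. The other protein-coding genes below by 2-fold were Megf6, Glrb, Fndc3c1, Dmxl2, Rapgef2, Itga9, Gas2l3 and Fbln1, with gaps from -1.28 to -1.004. Itga9 is an integrin chain and Fbln1 a matrix glycoprotein. Of the 22 genes below by 2-fold, the 5 small RNA genes Gm26226, Gm25057, Gm24867, Snord70 and Gm25809, had 0 reads in every treated library and at most 9 reads in a control, and their counting intervals overlapped. The last of the 22 was 2010008C14Rik, an unclassified transcript.

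Promoters of 2 genes below the controls, the widest gaps by the same choice, are given for comparison with those above, on the minus strand at chr4:98817538-98817787 for Kank4 and at chr5:137963099-137963348 for Gjc3, with the same capitals.
Kank4: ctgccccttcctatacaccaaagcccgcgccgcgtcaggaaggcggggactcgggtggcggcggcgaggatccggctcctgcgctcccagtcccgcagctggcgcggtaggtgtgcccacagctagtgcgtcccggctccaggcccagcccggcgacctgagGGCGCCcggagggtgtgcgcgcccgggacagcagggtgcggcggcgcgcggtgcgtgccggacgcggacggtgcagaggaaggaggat
Gjc3: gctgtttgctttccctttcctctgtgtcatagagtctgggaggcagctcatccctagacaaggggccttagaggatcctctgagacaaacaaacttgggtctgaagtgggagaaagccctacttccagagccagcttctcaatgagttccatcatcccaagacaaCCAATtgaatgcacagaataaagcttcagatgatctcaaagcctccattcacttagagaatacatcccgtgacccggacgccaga
Kank4 held GGCGCC 88 bases before the start and Gjc3 held CCAAT 85 bases before it, and neither held TGACGTCA. The Kank4 window was 74.8% G and C and the Gjc3 window 48.8%.

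Genes of DNA replication lay on the lower side or in neither class. Of 65 S-phase genes, 40 (61.5%) were below both controls and 0 were above, and the median of mean treated minus mean control was -1.07 on the log2(FPKM + 1) scale, against 0.05 for all genes compared. Pcna, the sliding clamp of DNA polymerase, was at 56.5, 86.8 and 50.7 FPKM with Myod1 expression, Pparg expression and Setdb1 knockdown and at 123 and 156 in the expression and knockdown vector controls. Mcm3, a subunit of the replicative helicase, was at 43.7, 88.4 and 25.8 FPKM against 123 and 126. Chaf1b, a nucleosome assembly factor, was at 11.2, 14.4 and 6.56 FPKM against 26.7 and 22.03. Every one of these 3 genes was nearest the controls in the Pparg library and lowest in the Setdb1 knockdown library. Relative to the mean of both controls, the list's median was -1.09 in the Myod1 library, -0.25 in the Pparg library and -1.79 in the Setdb1 knockdown library. Without the Pparg library 63 of the 65 were below, and without the Setdb1 knockdown library the median of mean treated minus mean control was -0.69. Only 1 S-phase gene, Usp1, was below by 1.5-fold.

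The list medians of G2 and mitosis genes had the same order, though not every gene did. Of 78, 59 (75.6%) were below both controls and 1, the securin gene Pttg1, was above, at 11.3, 12.0 and 13.6 FPKM against 9.49 and 8.22. Pttg1 was not above when each library was divided by the sum of its FPKM, where 55 were below and 0 above. Hmgb2, a chromatin protein of dividing cells, was at 8.81, 12.8 and 9.11 FPKM against 24.6 and 27.9. Ccna2, cyclin A2, was at 12.0, 24.8 and 4.69 FPKM against 35.2 and 41.5, and Plk4, the kinase of centriole duplication, at 1.79, 3.57 and 0.583 against 6.43 and 7.06. The list's median relative to the control mean was -1.26 in the Myod1 library, -0.31 in the Pparg library and -1.996 in the Setdb1 knockdown library. In bulk cultures, fewer dividing cells and less transcript per cell cannot be told apart.

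**Figure D3:**
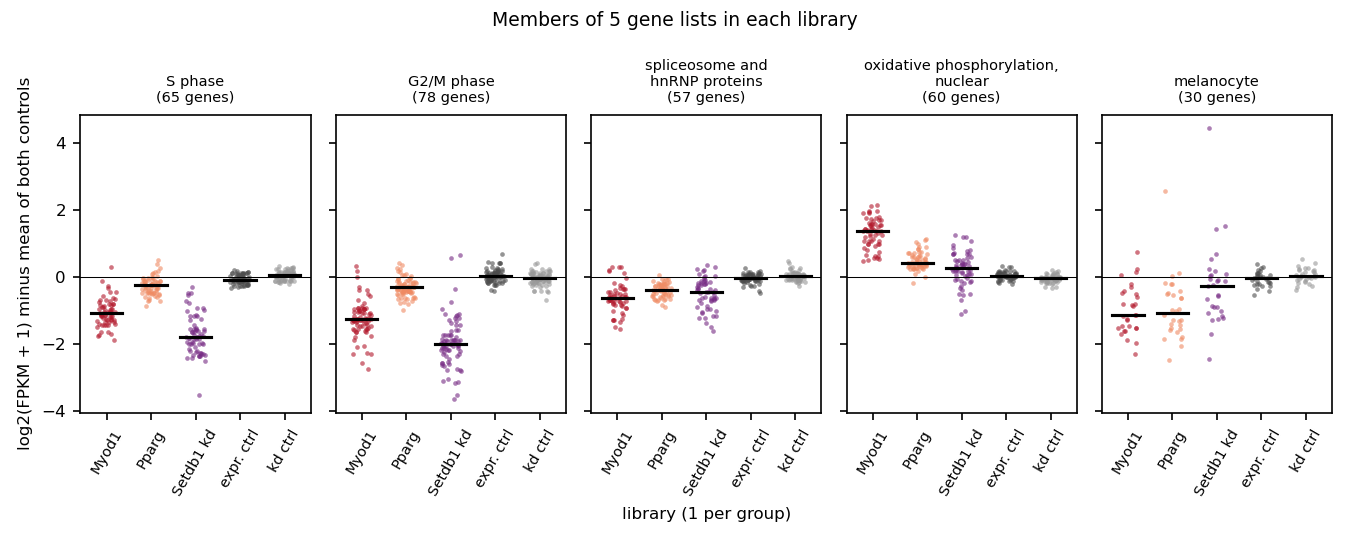
Each point is 1 gene of a list in 1 library, placed by its log2(FPKM + 1) minus the mean of both controls for that gene (vertical axis); black bars are medians. S-phase and G2/M medians are lowest with Setdb1 knockdown (-1.79 and -1.996) and nearest 0 among the treated libraries with Pparg expression (-0.25 and -0.31), while spliceosome medians are -0.61 (Myod1), -0.39 (Pparg) and -0.45 (Setdb1 knockdown).

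The genes that process RNA lay below both controls or in neither class. Of 57 genes for spliceosome and hnRNP proteins, 44 (77.2%) were below both controls and 0 were above. Their medians relative to the control mean were -0.61 in the Myod1 library, -0.39 in the Pparg library and -0.45 in the Setdb1 knockdown library. Hnrnpa1, an abundant splicing regulator, was at 52.1, 86.8 and 45.4 FPKM against 135 and 123, and Snrpd1, an Sm core protein, at 24.4, 25.6 and 26.6 against 37.8 and 44.3. Of 49 genes of ribosome biogenesis and the nucleolus, 27 (55.1%) were below and 0 above. Npm1, nucleophosmin, was at 49.1, 76.0 and 60.5 FPKM against 145 and 128, and Ncl, nucleolin, at 14.5, 34.3 and 21.4 against 54.5 and 56.1. Myc, a driver of ribosome production, was at 8.89, 10.4 and 9.31 FPKM against 14.6 and 23.3. Its knockdown vector control was well above its expression vector control, and all treated libraries were under both. Of 74 cytoplasmic ribosomal protein genes 3 (4.05%), namely Rps12, Rps2 and Rpl7a, were above and 0 below. That count rested on the Pparg library: without it 59 of the 74 were above, and the list's median relative to the control mean was 0.45 in the Myod1 library, -0.31 in the Pparg library and 0.38 in the Setdb1 knockdown library. When the knockdown vector control was left out, 13 of the 74 were above, and 7 without the expression vector control; 5 were below once the trend with GC content and length was removed. Leaving out the knockdown vector control also put 6 ribosome biogenesis genes above, and leaving out the Pparg library put 3 spliceosome genes above.

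Among 39 chromatin writers and co-repressors, 20 (51.3%) were below and 1, Ring1, was above. Ezh2, the H3K27 methyltransferase of Polycomb complex PRC2, was at 5.88, 11.8 and 6.004 FPKM against 17.9 and 20.1, and its partner Suz12 at 4.90, 11.2 and 4.86 against 16.1 and 15.1. Hdac2, a histone deacetylase, was at 11.03, 14.9 and 13.4 FPKM against 23.04 and 22.9. Of 43 chaperone and heat shock genes, 19 (44.2%) were below, among them the ER chaperone Hspa5 at 168, 136 and 113 FPKM against 272 and 229 and the chaperonin subunit Cct8 at 78.6, 102 and 81.7 against 140 and 126. The 4 above were the small heat shock genes Hspb1, Cryab and Hspb8 and the co-chaperone Dnajb4. Cryab was at 346, 281 and 415 FPKM against 206 and 225. With Pparg expression left out, 8 chaperone genes were above.

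Nuclear genes of mitochondrial energy production lay on the upper side. Of 60 nuclear genes of oxidative phosphorylation, 39 (65.0%) were above both controls and 0 were below, and 6 were above by 1.5-fold. Their median relative to the control mean was 1.38 in the Myod1 library, 0.43 in the Pparg library and 0.26 in the Setdb1 knockdown library, so that the Myod1 library stood well apart from the other treated libraries. Ndufa7, a complex I subunit, was at 88.0, 71.0 and 58.0 FPKM against 32.6 and 32.6. Cox5b, a complex IV subunit, was at 340, 172 and 221 FPKM against 111 and 99.1, and Atp5h, of ATP synthase, at 182, 125 and 106 against 73.8 and 66.1. The muscle isoform Cox6a2 was at 136, 1.53 and 2.62 FPKM with 2 reads in each control. With each library divided by the sum of its FPKM, 34 of the 60 were above and 0 below. The 13 protein genes encoded by the mitochondrial genome were all in neither class. Reads from the mitochondrial genome made up 2.81% of the Myod1 library, 1.60% of the Pparg library and 1.15% of the Setdb1 knockdown library, against 2.09% and 2.44% in the expression and knockdown vector controls, so the share was under both controls in the Pparg and Setdb1 knockdown libraries. Of 25 glycolysis and lactate genes, 0 were above and 0 below. This count depended on having both controls: with the expression vector control left out 6 were above and the median was 0.26 in place of -0.18, and with the knockdown vector control left out 15 were below. In that list the controls were themselves apart, with a median of knockdown vector control minus expression vector control of -0.99; Ldha, lactate dehydrogenase A, was at 958 and 684 FPKM in the Myod1 and Pparg libraries, between its controls at 1191 and 565, and at 195 in the Setdb1 knockdown library, under both.

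**Figure D4:**
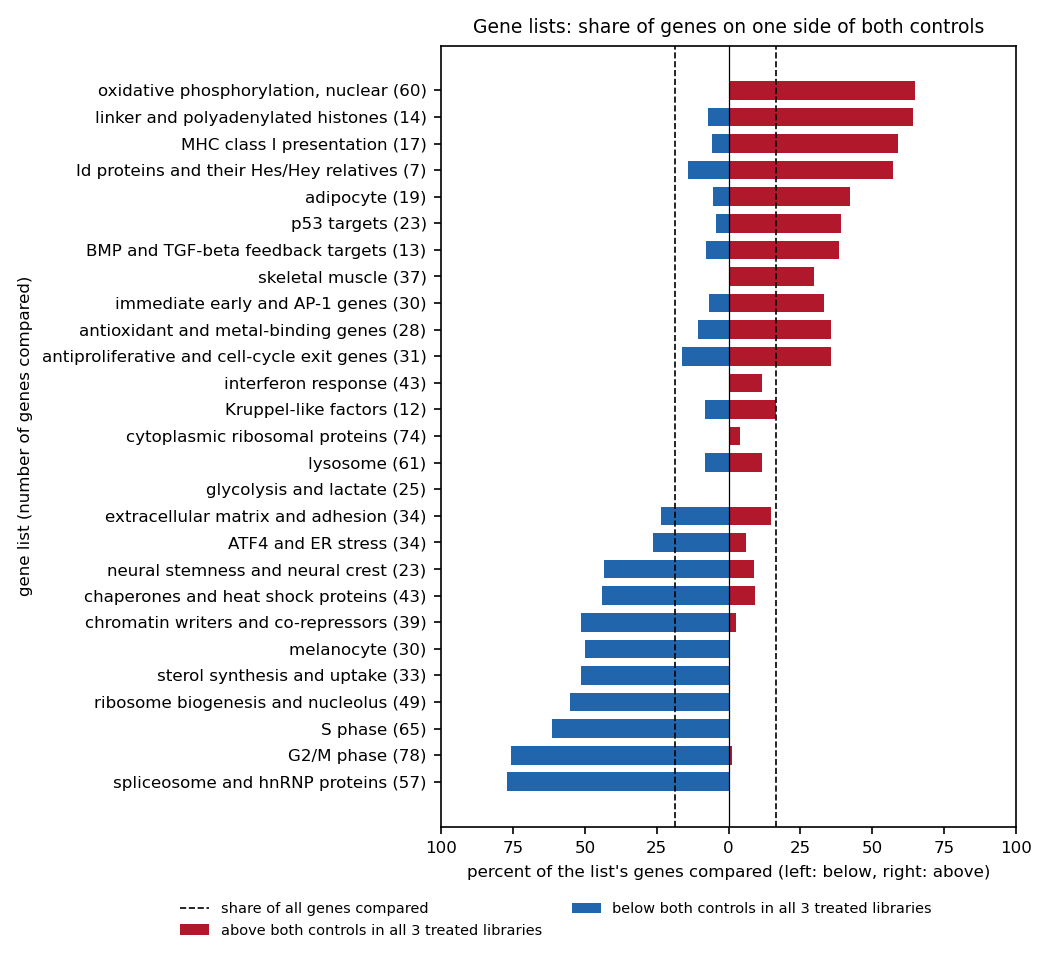
Share of each list's compared genes (number in brackets) that lie below both controls in all 3 treated libraries (blue, left) or above both (red, right), in percent; dashed lines mark the 18.7% and 16.5% of all genes compared. Oxidative phosphorylation stands at 65.0% above at the top and spliceosome genes at 77.2% below at the bottom.

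Antigen presentation genes were mostly above. Of 17 MHC class I presentation genes, 10 (58.8%) were above and 1, the ER chaperone Canx, was below. Psme1, a proteasome activator subunit, was at 33.4, 37.1 and 40.8 FPKM against 22.003 and 20.007, and Tapbpl, a peptide editor, at 6.60, 6.81 and 10.1 against 3.33 and 2.24. H2-D1, a classical class I heavy chain, was at 62.9, 119 and 75.7 FPKM against 55.7 and 43.6, and B2m, Erap1 and H2-K1 were in neither class. Class I heavy chains are near-identical copies, so reads among them may be split. With each library divided by the sum of its FPKM, 7 of the 17 were above. Of 43 interferon-response genes, 5 (11.6%) were above and 0 below. The treatments differed here: the list's median relative to the control mean was -0.31 in the Myod1 library, 1.33 in the Pparg library and 0.59 in the Setdb1 knockdown library. Leaving out Myod1 expression put 25 of the 43 above, leaving out the knockdown vector control put 11 above, and leaving out Pparg expression put 7 below. Ifi35 had the widest gap of the 5, at 13.5, 22.4 and 15.3 FPKM against 5.92 and 6.89.

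Growth-restraining genes were on the upper side more often than all genes, though not uniformly. Of 31 antiproliferative and cell-cycle exit genes, 11 (35.5%) were above and 5 (16.1%) were below. Cdkn1a, the CDK inhibitor p21, was at 425, 179 and 262 FPKM against 119 and 119. Mxd4, a Myc antagonist, was at 13.9, 24.1 and 17.9 FPKM against 8.85 and 6.63, while its relative Mxd3 was at 7.65, 10.99 and 2.33 against 15.6 and 14.1. Of 23 p53 targets, 9 (39.1%) were above and 1, Tigar, was below, against 16.5% and 18.7% of all genes. Counting intervals were apart in 5 of the 9. The gap was small in Ei24 (0.05), Aen (0.06), Bax (0.07) and Tnfrsf10b (0.11). Plk2, a polo-like kinase induced by p53, was at 16.8, 15.9 and 23.3 FPKM against 3.41 and 7.22, and Bbc3, which encodes the pro-death protein PUMA, at 14.0, 18.7 and 50.8 against 7.81 and 6.19. The p53 target Mdm2 was in neither class. With each library divided by the sum of its FPKM, 5 of the 23 were above, and without the knockdown vector control 14 were. Below lay 3 of the 23 without Pparg expression, 3 without the expression vector control and 2 without the knockdown vector control. Without the last of these 8 antiproliferative genes were below.

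Among 7 compared Id and Hes-type genes, 4 were above. Besides Id3 they were Id1, at 14.9, 2.83 and 2.33 FPKM against 0.792 and 1.03, Hes1, a Notch effector, at 3.62, 1.998 and 4.01 against 0.902 and 1.03, and Hes6, at 188, 21.3 and 23.9 against 14.3 and 14.3. Id2 was in neither class and Bhlhe40 was below. Of 13 BMP and TGF-beta feedback targets, a list that also holds Id1 and Id3, 5 were above and 1 below. Atoh8 was at 25.4, 14.7 and 2.39 FPKM against 0.0488 and 1.03, and the inhibitory SMAD gene Smad6 at 2.30, 2.15 and 3.88 against 1.32 and 1.53. Of 30 immediate early and AP-1 genes, 10 (33.3%) were above and 2, Myc and Dusp4, were below. Junb, an AP-1 subunit, was at 40.2, 28.2 and 35.8 FPKM against 11.01 and 9.17, and Zfp36, which destabilises cytokine mRNAs, at 9.40, 5.80 and 7.90 against 1.83 and 1.67. Fos, Jun and Egr1 were in neither class. Without the expression vector control 16 of the 30 were above.

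Pigment-cell genes were lower in part. Of 30 melanocyte genes, 15 (50.0%) were below both controls and 0 were above. Mitf, the master regulator of the lineage, was at 8.03, 16.7 and 13.7 FPKM against 28.7 and 41.6, and Tyr, tyrosinase, at 24.5, 30.6 and 52.9 against 76.2 and 76.9. Mlph, which links melanosomes to the transport motor Myo5a, was at 45.3, 51.6 and 43.2 FPKM against 78.0 and 83.5. Pmel was in neither class because the Setdb1 knockdown library, at 4347 FPKM, lay above both controls while the Myod1 and Pparg libraries, at 1248 and 536, lay below controls at 3014 and 2993. The list's median relative to the control mean was -1.14 in the Myod1 library, -1.07 in the Pparg library and -0.26 in the Setdb1 knockdown library, and without Setdb1 knockdown 24 of the 30 were below. Of 23 neural stemness and neural crest genes, 10 (43.5%) were below and 2, Hes1 and Snai1, above. Snai1 reached an FPKM of 1 only in the Myod1 library. It had 71, 1 and 7 reads in the Myod1, Pparg and Setdb1 knockdown libraries and 0 in the controls. Sox9 was at 1.55, 1.43 and 0.902 FPKM against 3.73 and 4.48, and Tfap2a, a neural crest factor, at 7.82, 10.9 and 9.99 against 19.0 and 17.2.

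Muscle genes were high with Myod1 expression and, for most of the list, at trace levels in the other libraries. Of 37 skeletal muscle genes, 11 (29.7%) were above both controls and 0 below, against 16.5% and 18.7% of all genes. Only 4 of the 11 had counting intervals apart. Of the 37, 32 reached an FPKM of 1 in only 1 library, and so did 8 of the 11, so the count rests on few reads outside the Myod1 library. Acta1, skeletal actin, was at 14993 FPKM in the Myod1 library, 0.849 in the Pparg library and 0.704 in the Setdb1 knockdown library, against 0.0797 and 0 in the controls. Desmin (Des) was an exception in size, at 102, 12.9 and 13.6 FPKM against 6.20 and 4.75. The muscle list summed to 43990 FPKM with Myod1 expression and to between 14.4 and 39.3 FPKM in the other 4 libraries. With each library centred on its median 26 muscle genes were above, 18 were without Pparg expression and 19 without Setdb1 knockdown. Centring shifts every gene of a library alike, so genes at 0 reads outside the Myod1 library, such as Myog, can pass by the shift alone. Of 19 adipocyte genes 8 were above and 1, Fabp5, was below. Among the 8, 6 were at 1 FPKM or more in every treated library, and Cd36 and Aqp7 reached 1 FPKM only with Pparg expression. Pnpla2, the first enzyme of fat breakdown, was at 65.0, 47.4 and 58.4 FPKM against 27.8 and 22.9, whereas Cd36, a fatty-acid importer, was at 146 FPKM with Pparg expression and at most 0.0709 in every other library, with 4 and 3 reads in the Myod1 and Setdb1 knockdown libraries against 1 and 0 in the controls. Fabp4 was at 153 FPKM with Pparg expression and at 0 in the other 4 libraries.

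Of 33 sterol synthesis and uptake genes, in a list that includes fatty-acid synthesis, 17 (51.5%) were below and 0 were above. Elovl6, a fatty-acid elongase, was at 1.06, 2.44 and 0.655 FPKM against 4.97 and 6.21, Scd2, a desaturase, at 251, 331 and 222 against 478 and 466, and Cyp51, of cholesterol synthesis, at 37.4, 27.5 and 22.2 against 49.9 and 59.2. Of 34 ATF4 and ER stress genes, 9 (26.5%) were below and 2 above. Their controls differed by a median of -0.73 (knockdown minus expression vector), and Slc7a5, an amino-acid transporter, was at 85.1, 43.0 and 40.2 FPKM against 193 and 100. Leaving out the knockdown vector control put 20 of the 34 below, and leaving out Setdb1 knockdown 14. The list turned when the expression vector control was left out, with 11 of the 34 above and a median of mean treated minus mean control of 0.11 in place of -0.18; 5 were above without Pparg expression. Of 34 extracellular matrix and adhesion genes, 8 (23.5%) were below and 5 (14.7%) above, close to the shares of all genes. Cd44, the hyaluronan receptor, was at 23.2, 32.3 and 15.7 FPKM against 60.7 and 64.5, and the integrin chain Itga3 at 2.58, 1.75 and 1.58 against 0.375 and 0.105. Without Pparg expression 15 matrix genes were below, and 9 were above without Myod1 expression and likewise without the expression vector control, where the list's median went from -0.14 to 0.04 and 0.09. Of 12 Kruppel-like factors, 2 (16.7%), Klf2 and Klf4, were above and 1 (8.33%), Klf12, was below. The shares of all genes were 16.5% and 18.7%, and in no Kruppel-like factor were the counting intervals apart. The counts for these factors moved with the library left out, to 4 below without Pparg expression, 4 below without the knockdown vector control, and 4 above and 3 below without the expression vector control.

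Gene length and base composition moved with the direction. Among protein-coding genes split by length into 5 classes of equal size, 28.7% of the shortest class and 7.25% of the longest were above both controls, while 8.03% of the shortest and 35.9% of the longest were below. The median length was 3188 bases for genes above, 5939 for genes below and 4358 for all protein-coding genes compared. By transcript GC content, 5.65% of the lowest of 5 classes and 30.5% of the highest were above, and 38.0% of the lowest and 6.20% of the highest were below. After the trend of each library with GC content and length was removed, 1383 of the 2123 genes (65.1%) were still above and 1551 of the 2396 (64.7%) still below, as were 24 of the 37 and 15 of the 22 by 2-fold. Id3 kept a gap of 2.70, Sod3 2.05, Btg2 1.87 and Hist1h1c 1.48, and Kank4 one of -1.85. Gaps under 1 were left for, among others, Hist2h3c2 (0.97), Dbp (0.98), Glrb (-0.71), Fndc3c1 (-0.83), Dmxl2 (-0.62), Rapgef2 (-0.84), Itga9 (-0.99) and Gas2l3 (-0.73). Of the lists, 40 S-phase, 50 G2/M, 35 spliceosome, 27 ribosome biogenesis and 15 melanocyte genes were then below and 32 oxidative phosphorylation genes above.

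**Figure D5:**
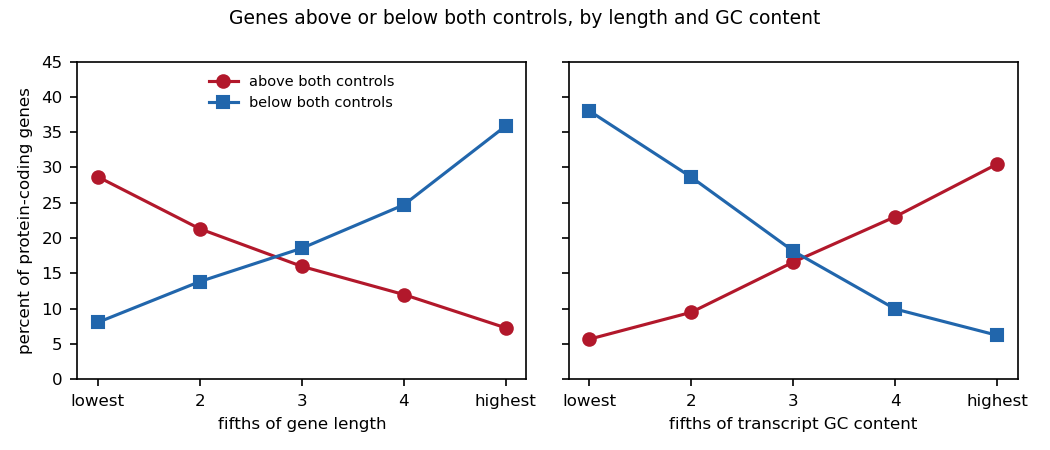
Percent of protein-coding genes above (red) or below (blue) both controls in all 3 treated libraries, by 5 classes of equal size of gene length (left panel) and of transcript GC content (right panel). From the shortest to the longest class the share above goes from 28.7% to 7.25% and the share below from 8.03% to 35.9%, and with GC content the directions are opposite.

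Biotypes also differed. Of 180 antisense genes, 49 (27.2%) were above and 4 (2.22%) below, and of 154 loci outside the annotation 35 (22.7%) were above and 7 below, against 16.5% and 18.7% of all genes compared. Of 94 small nucleolar RNA genes, 1 (1.06%) was above and 13 (13.8%) were below. Without stated strand use, antisense reads cannot be told apart from those of the overlapping genes, and small nucleolar RNAs rest on few reads.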

How the data were processed

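RNA was sequenced from 5 B16F10 cultures, 1 library per group; the labels' protocols name TRIzol extraction and the NEBNext Ultra RNA kit. Tools named per the submitters' processing notes are CASAVA, HISAT2 and featureCounts 1.5.0-p3, with build GRCm38; their settings, the use of strand and the treatment of shared reads are not given in the sources used here. The values are FPKM in a single table as the authors deposited it, which also gives, per the file headers, each gene's identifier, symbol, position, length and biotype. FPKM times length gave whole reads for 100% of values (tolerance 0.01), and the depth by which the values had been divided was between 0.859 and 1.10 times the recovered reads, so the deposited values were already scaled between libraries. They were used as deposited.

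Genes that reached an FPKM of 1 in any library were compared on log2(FPKM + 1), which understates the change of low genes. The members and the 29 gene lists (1116 entries, 3 symbols missing, the row with the highest mean taken where a symbol repeats) were chosen with earlier results of these data known. Genes named are Id3, Hist1h1c, Sod3 and Btg2, the 15 protein-coding genes with the widest gap in each direction (1 of them is not reported here), list members (mainly those with the widest gaps) and the 3 genes beside each limit; the other 2-fold genes, several described with values, and list members picked for contrast were named after their values were seen. Wilson intervals at 95% were put on each gene's share of reads. GC content came from the longest GENCODE M21 transcript (found for 98.7% of genes compared; 98.3% of shared identifiers had the same position as in the table). The GC content and length trend of each library against the 5-library mean was removed in 20 bins over 5 rounds. Promoters are the 250 bases before RefSeq starts, matched by symbol and position. Software was Python 3.11.15, numpy 2.4.6 and pandas 2.3.3. The rule was also run on simulated counts that held counting error only, with no spread between cultures. That run cannot show how the rule behaves with 1 culture per group. Alternatives were another pseudocount, filter, scaling, protein-coding genes only, trend removal and each library left out; the counting intervals, a floor of 3 reads and the recount of the lists after trend removal were added after seeing the data.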

Additional observations from a re-analysis of the deposited data

How the results depend on the processing

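With a pseudocount of 0.1 in place of 1, 159 genes were above and 70 below by 2-fold, against 37 and 22; the log2(FPKM + 1) scale shrinks low values. With counting intervals required apart, 852 genes were above and 1242 below, against 2123 and 2396. Leaving out each library in turn gave 2854 to 3412 genes above, 3133 to 3379 below, 69 to 195 above by 2-fold and 34 to 285 below by 2-fold; fewer libraries make the rule easier to pass. The other filters, scalings, protein-coding genes only, trend removal and a floor of 3 reads kept all 4 counts within 1.5 times, and no gap of the 30 protein-coding genes with the widest gaps changed sign under any alternative run. The size of these gaps moved past the limits set by the counting intervals in 20 of the 30 after trend removal, 14 at a pseudocount of 0.1, 10 without Pparg expression, 7 without the knockdown vector control, 5 without Setdb1 knockdown and 4 without the expression vector control. Dividing by the sum of FPKM moved the median of Myod1 expression minus its control over all genes from 0.02 to -0.26. The labels tie each treatment to its own vector control, but 1 control serves both forced-expression cultures and no number pairs cultures. No paired analysis was run, since each group has 1 library. With 1 culture per group, the spread between cultures is unknown, and for the 5 of the 22 genes below and the 1 of the 37 above with fewer than 20 reads in every library a difference was not detectable at this depth.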
